A study of Mus musculus with 6 samples.

Results

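Genes that mark T cells and natural killer (NK) cells were followed in whole liver of Balb/cBy and Balb/c mice. The set of 32 genes covers the T cell receptor complex, its coreceptors and signalling proteins, receptors for cytokines, cytotoxic granule proteins, NK receptors and lineage transcription factors. It was drawn up from known roles, but with earlier results of these data known. Each gene is represented by the probe set with the highest mean among those that the platform annotation assigns to its symbol alone. Of the 32 genes, 30 were measured, out of 22180 genes in all, and the annotation lists no probe set for the signalling chain Cd247 or the kinase Lck.

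One group was 3 males of the Balb/cBy substrain, which the series calls KD without naming a gene, and the other was 3 males of Balb/c, which it calls wild type. High-fat feeding (58% of energy from fat) began at week 8 and lasted 12 weeks in both groups, and all animals were 20 weeks old, so no animal on ordinary chow enters the comparison. Total RNA of each liver was hybridised to 1 Affymetrix whole-transcript array, and replicates are labelled as biological. Balb/cBy mice are known to carry a deletion in Acads, the short-chain acyl-CoA dehydrogenase. Its log2 level averaged 10.77 ± 0.17 in Balb/cBy and 11.43 ± 0.13 in Balb/c livers (SD, n = 3 each). The position of its probes in the gene is not known here, so the value does not check the deletion. Values are log2 signals made with RMA, so a difference of 1 is a doubling of signal.

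T cells recognise antigen through a receptor whose CD3 chains pass the signal to the kinases Lck and Zap70 and the adaptor Lat. NK cells carry no such receptor and read a balance of activating and inhibitory surface receptors. Both kill target cells by releasing perforin and granzymes, and both can secrete interferon gamma. The mouse liver is rich in NK cells and in resident lymphocytes that bear the chemokine receptor Cxcr6, and T cells are studied there as one source of inflammation in fatty liver.

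Upstream sequence was read for the members with the largest differences that had an entry, Nkg7, Cd3d and Prf1, to show the letters that factors of this lineage are known to bind. Each line gives the 250 bases before the annotated start on the plus strand of GRCm38.p6, from RefSeq's C57BL/6J reference and not from these mice: chr7:43436888-43437137 for Nkg7, chr9:44981536-44981785 for Cd3d and chr10:61297586-61297835 for Prf1. Capitals mark 3 motifs on either strand. The core of sites for T-box factors such as Tbx21 and Eomes is GGTGTG, the core of sites for RUNX factors of T and NK cells is TGTGGT, and a core of sites for ETS factors is AGGAAG.
Nkg7: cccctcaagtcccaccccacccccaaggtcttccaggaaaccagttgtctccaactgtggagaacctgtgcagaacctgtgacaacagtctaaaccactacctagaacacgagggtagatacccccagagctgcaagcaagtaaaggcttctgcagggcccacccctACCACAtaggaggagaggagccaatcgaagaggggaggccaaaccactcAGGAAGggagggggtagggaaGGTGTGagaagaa
Cd3d: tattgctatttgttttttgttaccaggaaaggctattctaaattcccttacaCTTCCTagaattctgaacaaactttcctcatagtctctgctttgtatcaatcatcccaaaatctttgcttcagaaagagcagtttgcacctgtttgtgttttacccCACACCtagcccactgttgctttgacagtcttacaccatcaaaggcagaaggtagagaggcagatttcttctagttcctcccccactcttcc
Prf1: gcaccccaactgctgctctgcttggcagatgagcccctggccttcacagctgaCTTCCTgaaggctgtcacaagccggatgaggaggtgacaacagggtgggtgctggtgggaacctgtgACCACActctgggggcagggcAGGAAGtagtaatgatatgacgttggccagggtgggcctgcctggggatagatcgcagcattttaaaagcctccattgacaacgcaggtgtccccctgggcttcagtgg
Both strands were searched, and matches to the T-box and RUNX letters may overlap. Nkg7 holds all of the 3 motifs, with the T-box letters beginning 13 bases before the start, the ETS letters 34 and the RUNX letters 83 bases before it. Among the 23 members with an entry, 9 held the RUNX letters, or 39.1%, against 14.2% of 27025 windows of the same length. The ETS letters were in 12 of the 23, or 52.2%, against 29.2% of all windows, and the T-box letters in 3, or 13%, against 16.2%. Those with the RUNX letters include the granzymes Gzma and Gzmb, the NK receptors Klrb1c, Klrk1 and Ncr1, and Cxcr6. A match describes letters in a window and not a bound site.

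The liver identity of the samples was plain from its markers. Albumin (Alb) read between 14.16 and 14.22 on every array, and the Kupffer cell lectin Clec4f averaged 10.43 ± 0.24 in Balb/cBy and 10.31 ± 0.38 in Balb/c livers (SD, n = 3 each). The values carry no detection call, so the 95th percentile of the means of 1105 olfactory receptor genes, 8.02, served as a stand-in for background, chosen with the data known. Of the 30 T and NK cell genes, 11 had a mean above it: Cd3e, Cd4, Cd8b1, Cd5, Cd6, Thy1, Zap70, Lat, Nkg7, Gzmk and Tbx21. The means of the 30 ran from 6.30 to 8.58, and 11240 of the 22180 genes lay above 8.02. Probes differ in brightness for the same amount of RNA, so these levels rank no gene against another.

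**Figure D1:**
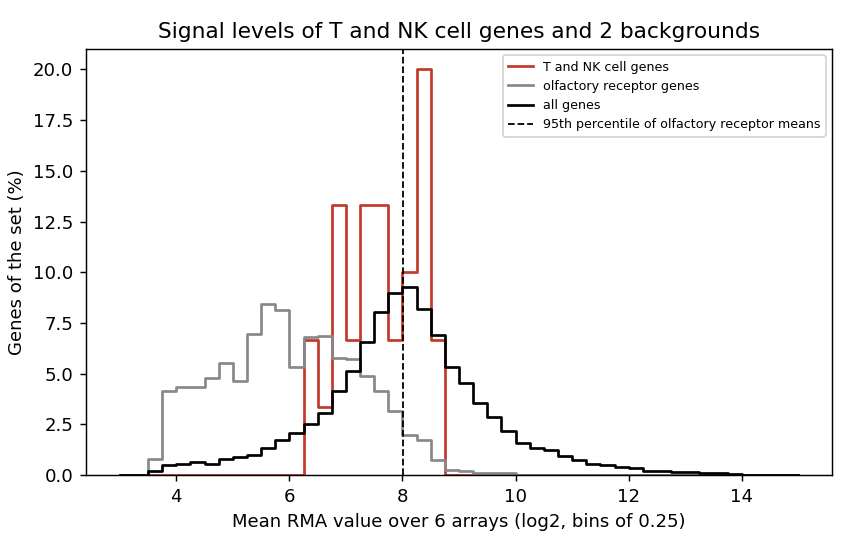
Share of genes (y axis, percent of each set) by mean log2 RMA value over the 6 arrays (x axis, bins of 0.25) for the 30 T and NK cell genes, 1105 olfactory receptor genes and 22180 genes in all. The T and NK cell genes lie between 6.30 and 8.58, on both sides of the dashed line at 8.02.

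No T or NK cell gene differed between the substrains beyond the spread between arrays once all genes were allowed for. No member passed limma's adjusted p of 0.05, the adjusted p of all 30 being 0.999, and 0% of all genes passed. In 24 of the 30 the mean was lower in Balb/cBy, where 50.9% of all genes were lower, and the median difference of Balb/cBy minus Balb/c was -0.05 (log2) against -0.0028 over all genes. None of the 30 differed by 0.25 or more, a size reached by 8.56% of all genes. At an unadjusted p under 0.05 stood 1 of the 30, Nkg7, where 3.74% of all genes did and 1.15% did so as lower genes. The groups did not overlap in 1 of the 30, again Nkg7, against 7.83% of all genes in either direction and 3.51% as lower genes. In whole liver RNA, fewer T or NK cells and less RNA per cell cannot be told apart.

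The share of lower genes varied with signal level. Of the 11 members above the olfactory receptor level 8 were lower in Balb/cBy, with a median of -0.08, against 43.2% of all genes above it. Of the 19 members at or under that level 16 were lower, with a median of -0.04, against 58.8% of all genes at or under it. Olfactory receptor genes, the stand-in for background, were lower in 54.6% of cases. The 95% intervals of the 30 differences all lay between -0.58 and 0.36, or between 0.669 and 1.28 times the Balb/c signal. Signals near background contain light that does not come from the gene's RNA, so a change in the RNA of a dim gene may be larger than the change in its signal.

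**Figure D2:**
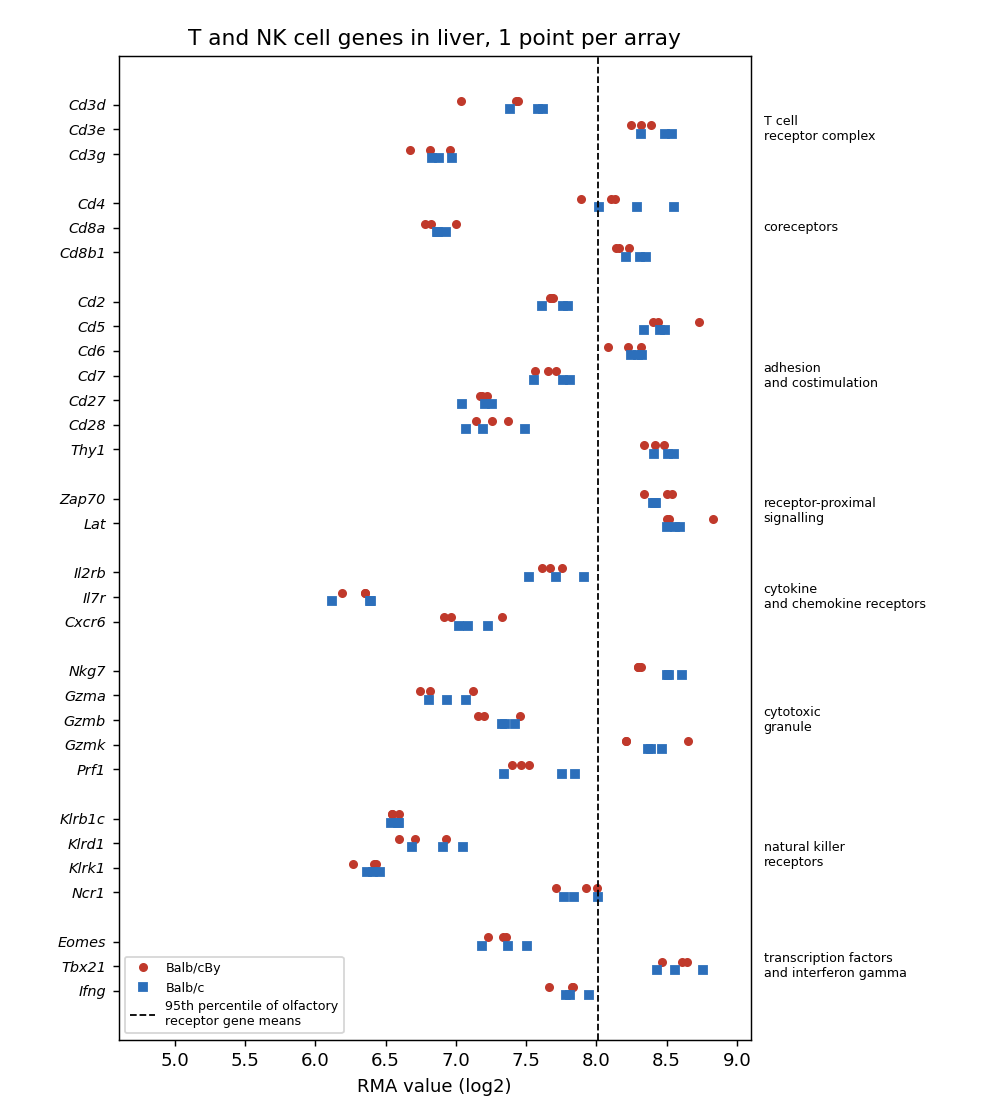
Log2 RMA value (x axis) of the 30 measured T and NK cell genes (rows, grouped by role), 1 point per array, with Balb/cBy as circles above Balb/c as squares. The dashed line marks 8.02, and only for Nkg7 do the circles and squares not overlap.

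The measured CD3 chains, which form the signalling part of the T cell receptor, were lower in mean in Balb/cBy, with overlapping groups in each. Cd3e read 8.39, 8.25 and 8.32 in Balb/cBy livers, against 8.49, 8.54 and 8.31 in Balb/c livers. Only Balb/c replicate 3 lay within the Balb/cBy range, and the difference was -0.13 ± 0.10 (SE, unadjusted p = 0.239 by limma). Cd3d read 7.43, 7.44 and 7.04 in Balb/cBy livers, against 7.58, 7.62 and 7.38 in Balb/c livers. Its difference of -0.22 ± 0.13 (SE) drew on the low value of Balb/cBy replicate 3, and all its values lay under the olfactory receptor level. Cd3g, the third chain, differed by -0.08 ± 0.10 (SE) and was likewise dim. Cd3g, Cd3d and Cd3e are neighbours on chromosome 9.

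The coreceptors Cd4, of helper T cells, and Cd8a and Cd8b1, of cytotoxic T cells, were also lower in mean. Cd4 had the largest difference of the members at -0.24 ± 0.15 (SE, unadjusted p = 0.131 by limma). It read 8.10, 8.13 and 7.89 in Balb/cBy livers, against 8.29, 8.55 and 8.02 in Balb/c livers. Balb/c replicate 2 was the highest and Balb/cBy replicate 3 the lowest, with Balb/c replicate 3 inside the Balb/cBy range. Some mouse dendritic cells also make Cd4, so the gene alone does not mark T cells. Cd8b1 read 8.23, 8.14 and 8.16 in Balb/cBy livers, against 8.21, 8.31 and 8.35 in Balb/c livers, and differed by -0.11 ± 0.09 (SE). Its partner chain Cd8a, which dendritic cells can also make, was dimmer and differed by -0.02 ± 0.10 (SE).

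Among the adhesion and costimulatory genes, 3 of 7 had a higher and 4 a lower mean in Balb/cBy livers, and none passed. Cd5, a brake on receptor signalling, read 8.73, 8.44 and 8.40 in Balb/cBy livers, against 8.34, 8.49 and 8.45 in Balb/c livers. Its difference of 0.10 ± 0.12 (SE), the highest of the members, came from Balb/cBy replicate 1. Its neighbour on chromosome 19, Cd6, a receptor for the adhesion protein Alcam, read 8.32, 8.23 and 8.08 in Balb/cBy livers, against 8.33, 8.29 and 8.25 in Balb/c livers. Thy1, a surface marker of mouse T cells that some stromal cells share, read 8.48, 8.42 and 8.34 in Balb/cBy livers, against 8.41, 8.55 and 8.51 in Balb/c livers. Both genes overlapped between the groups and differed by -0.08 with an SE of 0.10 for Cd6 and 0.09 for Thy1. Cd2, Cd7 and the costimulatory receptors Cd27 and Cd28 differed by -0.07 to 0.02 and lay under the olfactory receptor level.

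The 2 measured receptor-proximal signalling genes had higher means in Balb/cBy, each by less than its SE. Zap70, the kinase that binds phosphorylated CD3 chains, read 8.34, 8.50 and 8.54 in Balb/cBy livers, against 8.43, 8.41 and 8.42 in Balb/c livers. Lat, the adaptor that Zap70 phosphorylates, read 8.83, 8.51 and 8.51 in Balb/cBy livers, against 8.56, 8.51 and 8.59 in Balb/c livers. The differences were 0.04 ± 0.09 and 0.06 ± 0.11 (SE). In Lat the highest array was again Balb/cBy replicate 1, the others of both groups lying together. Without that array Lat differed by -0.0425.

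**Figure D3:**
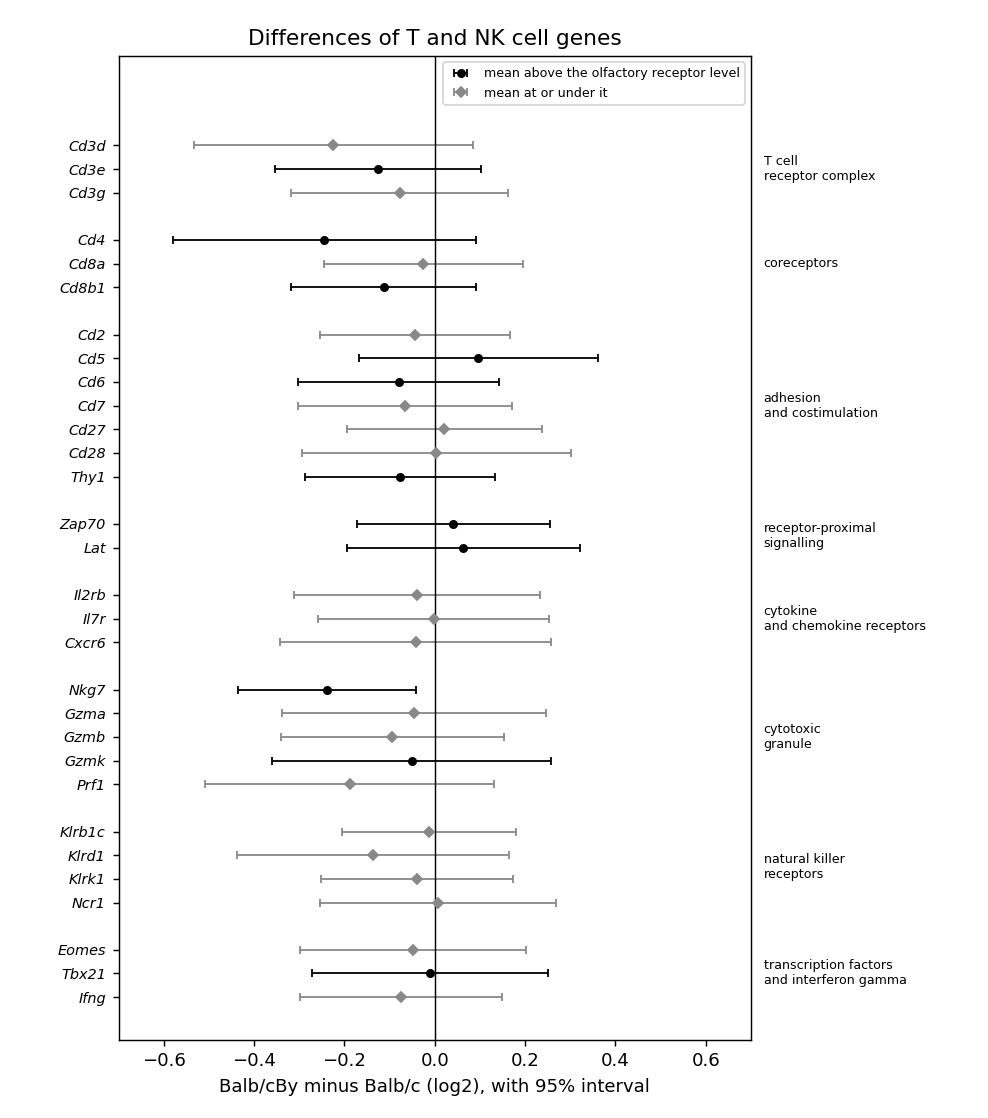
Difference of Balb/cBy minus Balb/c (x axis, log2) with limma's 95% interval for the 30 measured T and NK cell genes (rows, grouped by role). Black circles are genes above the olfactory receptor level, grey diamonds those at or under it. Every interval except that of Nkg7, from -0.44 to -0.04, includes 0.

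Among the 5 cytotoxic granule genes, the groups did not overlap in 1, Nkg7. This was the only gene without overlap among the 30 members, against 3.51% of all genes as lower genes. Nkg7, a granule membrane protein of NK and cytotoxic T cells that helps granules release their content, read 8.30, 8.30 and 8.32 in Balb/cBy livers, against 8.50, 8.61 and 8.52 in Balb/c livers. All Balb/c arrays were higher than all Balb/cBy arrays. The mean was 8.30 ± 0.01 in Balb/cBy and 8.54 ± 0.06 in Balb/c livers (SD, n = 3 each). The difference of -0.24 ± 0.09 (SE) is a signal 0.848 times that of Balb/c, with an unadjusted p of 0.0233 and an adjusted p of 0.999 by limma. With 3 arrays against 3 an exact permutation test cannot go below p = 0.1. Leaving out each array in turn gave Nkg7 differences from -0.26 to -0.21, and its unadjusted p was above 0.05 in 3 of the 6 fits, those without Balb/cBy replicate 2, Balb/cBy replicate 3 or Balb/c replicate 2.

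The other granule genes were not separated. Prf1, perforin, which opens pores in the target cell, read 7.46, 7.40 and 7.52 in Balb/cBy livers, against 7.75, 7.85 and 7.34 in Balb/c livers. Its difference of -0.19 ± 0.14 (SE) came with Balb/c replicate 3 as the lowest of all 6 arrays. Gzmk, a granzyme of memory T cells and other lymphocytes, read 8.66, 8.21 and 8.21 in Balb/cBy livers, against 8.37, 8.39 and 8.47 in Balb/c livers. Here Balb/cBy replicate 1 was the highest array and the other Balb/cBy arrays were the lowest. Gzmb, a granzyme that triggers cell death, showed the same order, with 7.46, 7.20 and 7.16 in Balb/cBy livers, against 7.35, 7.42 and 7.33 in Balb/c livers. In Gzma, the neighbour of Gzmk on chromosome 13, Balb/cBy replicate 1 was the highest array as well. Gzmk, Gzmb and Gzma differed by -0.05 ± 0.13, -0.09 ± 0.11 and -0.05 ± 0.13 (SE).

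The 4 NK receptors all lay under the olfactory receptor level. Klrd1 (CD94), which pairs with NKG2 proteins to sense a nonclassical class I protein, read 6.93, 6.59 and 6.71 in Balb/cBy livers, against 6.91, 6.69 and 7.05 in Balb/c livers. The groups overlapped and differed by -0.14 ± 0.13 (SE). Klrb1c, which encodes the NK1.1 antigen in other strains, Klrk1 (NKG2D) and Ncr1 (NKp46), all activating receptors, differed by -0.01 ± 0.08, -0.04 ± 0.09 and 0.0073 ± 0.11 (SE). Klrd1 and Klrk1 are neighbours on chromosome 6, where 7 of the 32 genes lie.

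The lineage factors and interferon gamma overlapped between the groups. Tbx21 (T-bet), which drives interferon gamma production, read 8.65, 8.47 and 8.61 in Balb/cBy livers, against 8.56, 8.76 and 8.43 in Balb/c livers. The Balb/cBy range lay inside the Balb/c range, and the difference was -0.01 with a 95% interval from -0.27 to 0.25. Eomes, its relative in NK and memory T cells, differed by -0.05 ± 0.11 (SE) and Ifng itself by -0.07 ± 0.10 (SE), both dim. The cytokine receptors Il2rb, of interleukins 2 and 15, and Il7r, of interleukin 7, differed by -0.04 ± 0.12 and -0.0024 ± 0.11 (SE). Cxcr6 read 7.33, 6.91 and 6.97 in Balb/cBy livers, against 7.02, 7.09 and 7.23 in Balb/c livers, with Balb/cBy replicate 1 highest and a difference of -0.04 ± 0.13 (SE).

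The highest and lowest arrays were counted over the members. Balb/c replicate 2 was the highest array for 11 of the 30 genes, against 21.2% of all genes and 18.3% of olfactory receptor genes. Balb/cBy replicate 3 was the lowest for 10, against 16.4% of all genes and 24.5% of olfactory receptor genes. Balb/cBy replicate 1 was the highest for 6, against 20.9% of all genes and 30.1% of olfactory receptor genes. Those 6 were Cd5, Lat, Cxcr6, Gzma, Gzmb and Gzmk. The mean over the 30 genes was 7.67, 7.58 and 7.55 on the Balb/cBy arrays, against 7.67, 7.71 and 7.61 on the Balb/c arrays, so the groups overlapped. The Balb/cBy arrays had the same order for olfactory receptor genes, whose median deviation from the gene mean was 0.069, -0.042 and -0.063 on the Balb/cBy arrays, against -0.017, 0.019 and 0.013 on the Balb/c arrays. For the T and NK cell genes it was 0.022, -0.037 and -0.077 on the Balb/cBy arrays, against 0.044, 0.048 and -0.024 on the Balb/c arrays. The part of this shared shift in the differences was not tested.

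**Figure D4:**
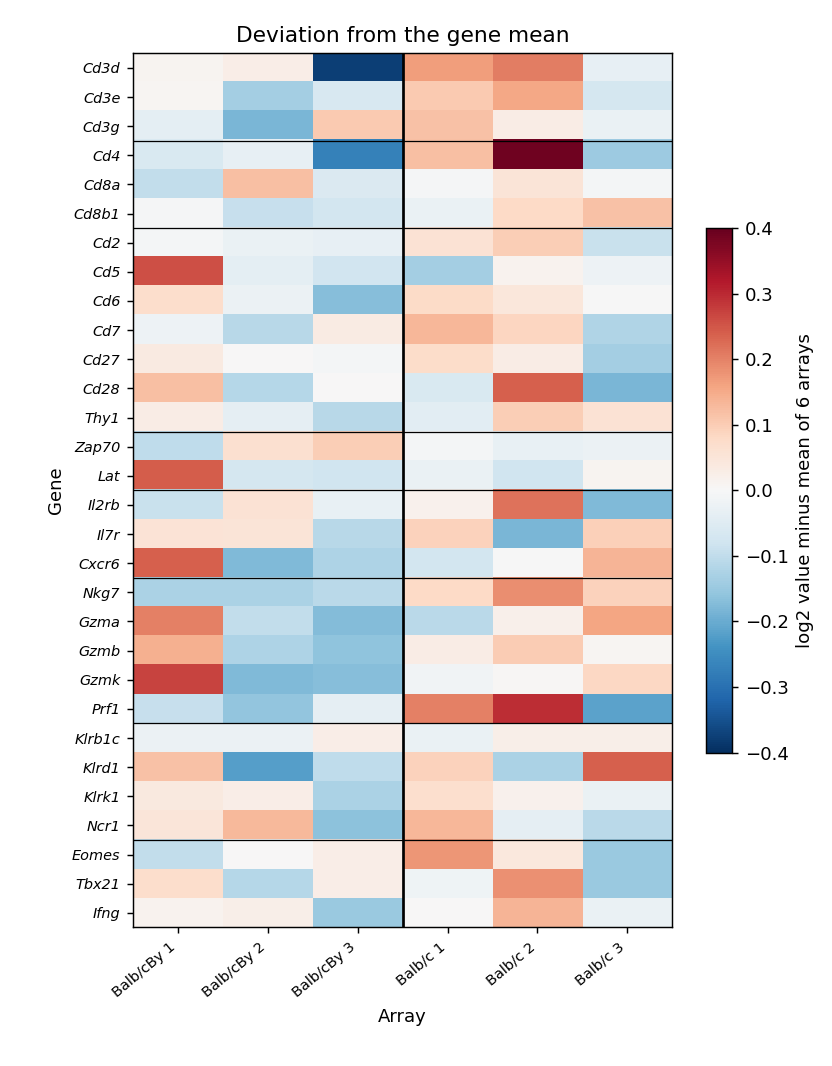
Log2 value minus the mean of the 6 arrays (colour) for each T and NK cell gene (rows) on each array (columns, Balb/cBy left of the black line and Balb/c right of it). Nkg7 is below its mean on all Balb/cBy arrays, while Gzma, Gzmb, Gzmk, Cxcr6, Lat and Cd5 are highest on Balb/cBy replicate 1.

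Balb/cBy replicate 1 and Balb/c replicate 3 had the lowest array weights in limma, 0.471 and 0.635, so the counts were repeated without them. Without Balb/cBy replicate 1, 27 of the 30 were lower against 53.3% of all genes. The groups then did not overlap in 6 lower genes, Cd6, Cd8b1, Cxcr6, Gzmb, Gzmk and Nkg7, and in 1 higher gene, Zap70. Of all genes 26.9% then did not overlap, 14.1% lower and 12.8% higher. Without Balb/c replicate 3, 24 were lower against 51.8% of all genes, and 8 genes, all lower, did not overlap against 19.6% of all genes and 10.1% as lower genes: Cd2, Cd3d, Cd3e, Cd4, Cd7, Eomes, Nkg7 and Prf1. Without both arrays 25 were lower against 53.7% of all genes, and 15 did not overlap, 14 of them lower, against 43.2% of all genes, 23.3% lower. In none of these fits did a member pass an adjusted p of 0.05 by limma. Without both, Cd3d, Cd4 and Prf1 stood at an unadjusted p under 0.05, as did 9.81% of all genes. Without Balb/c replicate 3 alone, Cd4, Nkg7 and Prf1 did, with 4.78% of all genes, and with array weights Cd3d, Cd4 and Nkg7, with 7.75%. With the replicate number as a block no member did, against 2.28% of all genes.

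Genes that act with the members gave few differences. Of 68 other T and NK cell genes 58 were measured, 17 higher and 41 lower in Balb/cBy, where 50.9% of all genes were lower. Only 15 of the 58 lay above the olfactory receptor level, and 58.8% of all genes at or under it were lower. The median of the 58 was -0.03, and 0 passed limma's adjusted p. At an unadjusted p under 0.05 stood 1 of the 58, where 3.74% of all genes did. That gene was Ccl5, a chemokine made by activated T and NK cells but also by other cells. It read 8.92, 9.14 and 9.41 in Balb/cBy livers, against 10.36, 10.24 and 9.20 in Balb/c livers. Balb/c replicate 3 lay within the Balb/cBy range, and the difference was -0.78 ± 0.29 (SE, unadjusted p = 0.0277 by limma). Gimap6, a GTPase of lymphocytes, read 8.15, 8.02 and 8.10 in Balb/cBy livers, against 8.31, 8.28 and 8.25 in Balb/c livers, without overlap. Its difference was -0.19 ± 0.09 (SE). Il18rap and Lag3, both dim, also did not overlap, making 3 of the 58, all lower, against 3.51% of all genes as lower genes. Zbtb16 (PLZF), a factor of innate-like T cells, was higher in mean by 0.40 ± 0.27 (SE), with overlapping groups. Which liver cells gave the Gimap6 and Zbtb16 signals was not tested.

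Of 33 ligands and partners of the members 31 were measured, 18 higher and 13 lower, with a median of 0.02 and 0 past the adjusted p. Cxcl16, the ligand of Cxcr6, read 9.53, 9.72 and 9.72 in Balb/cBy livers, against 9.71, 9.79 and 9.29 in Balb/c livers, and differed by 0.06 ± 0.14 (SE). The cytokines Il15, which sustains NK cells, and Il7 differed by 0.13 ± 0.15 and 0.12 ± 0.10 (SE) and lay under the olfactory receptor level. Fcer1g, a signalling adaptor of NK cells that macrophages also make, was higher at 0.48 ± 0.19 (SE). It was the 1 partner of 31 without overlap, against 7.83% of all genes, though the groups nearly met. Fcer1g read 9.94, 10.53 and 10.11 in Balb/cBy livers, against 9.93, 9.84 and 9.38 in Balb/c livers. It was also the 1 partner at an unadjusted p under 0.05, where 3.74% of all genes stood. The kinase Csk, which restrains Lck, was at -0.15 ± 0.12 (SE). Of 24 targets of interferon gamma 21 were measured, 11 higher and 10 lower, with a median of 0.00043. None passed the adjusted p, and 3 of the 21 stood at an unadjusted p under 0.05. The 3 were Cxcl9, a chemokine that draws T and NK cells, lower at -1.25 ± 0.39 (SE), and the GTPases Igtp and Irgm1, higher at 0.51 ± 0.20 and 0.36 ± 0.16 (SE). Igtp read 10.40, 11.14 and 10.42 in Balb/cBy livers, against 10.11, 10.01 and 10.32 in Balb/c livers. Balb/cBy replicate 2 stood above the rest, and without it Igtp differed by 0.27 and Irgm1 by 0.23, neither at an unadjusted p under 0.05. Without that array Fcer1g differed by 0.31 (unadjusted p = 0.125 by limma). It also differed by 0.31 without Balb/c replicate 3, and without Balb/c replicate 1 Cxcl9 differed by -0.78. Cxcl9 read 8.85, 9.59 and 9.41 in Balb/cBy livers, against 11.47, 10.38 and 9.75 in Balb/c livers, with no overlap.

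**Figure D5:**
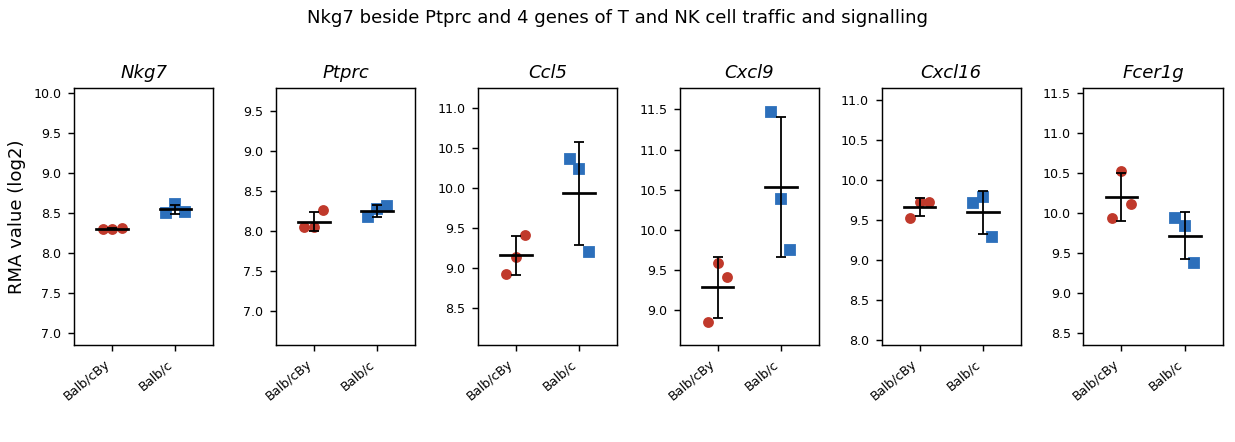
Log2 RMA value (y axis, each panel spanning the same range) of Nkg7, Ptprc, Ccl5, Cxcl9, Cxcl16 and Fcer1g in Balb/cBy (left, circles) and Balb/c (right, squares) livers, 1 point per array with the mean and SD of 3. The mean of Nkg7 is lower by 0.24 in Balb/cBy, without overlap. Ccl5 and Cxcl9 differ more but vary widely among Balb/c livers, and Ccl5 overlaps. Fcer1g is higher in mean by 0.48 in Balb/cBy, without overlap though the groups nearly meet, and Cxcl16 and Ptprc overlap.

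Markers of other leukocytes were set beside the T and NK cell genes. Ptprc (CD45), on nearly all leukocytes, read 8.05, 8.05 and 8.26 in Balb/cBy livers, against 8.17, 8.27 and 8.31 in Balb/c livers, a difference of -0.13 ± 0.10 (SE). Of 13 measured pan-leukocyte genes 7 were higher and 6 lower, with a median of 0.0086, Cd53 and Laptm5 being higher in mean by 0.16 ± 0.17 and 0.18 ± 0.19 (SE). Among 13 B cell genes 5 were higher and 8 lower, and 5 did not overlap, 3 of them lower and 2 higher, where 7.83% of all genes did not. These include the B cell receptor subunit Cd79b at -0.27 ± 0.10 and the surface protein Ms4a1 (CD20) at -0.27 ± 0.09 (SE). Both stood at an unadjusted p under 0.05, the only 2 of the 13 to do so, where 3.74% of all genes did. The transcription factor Spib, also without overlap, was higher in mean by 0.24 ± 0.11 (SE). Ms4a1 and Spib were dim, with means of 6.19 and 7.26 under the olfactory receptor level. Of 8 plasma cell genes 5 were higher, and 2 stood at an unadjusted p under 0.05, where 3.74% of all genes did. The 2 were the immunoglobulin joining chain Jchain at 1.12 ± 0.28 and the secretory factor Xbp1 at 0.37 ± 0.13 (SE). Derl3 was at 0.43 ± 0.25 (SE). Jchain read 7.44, 8.31 and 8.70 in Balb/cBy livers, against 7.09, 6.91 and 7.10 in Balb/c livers. Its mean over all arrays was 7.59, under the olfactory receptor level, while its Balb/cBy mean of 8.15 lay above that level. Xbp1 had a mean of 11.58. Neither gene overlapped between the groups, where 7.83% of all genes did not. Whether the Xbp1 signal came from plasma cells was not tested. No pan-leukocyte gene stood at that p.

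Lists of myeloid cells differed in direction among themselves, and no contrast with the T and NK cell genes was tested. Of 14 Kupffer cell and macrophage genes 10 were higher (median 0.10). Above the olfactory receptor level lay 12 of the 14, and 43.2% of all genes above it were lower. Of 12 neutrophil genes 8 were higher (median 0.08). At an unadjusted p under 0.05 stood 2 of each list, where 3.74% of all genes did. The macrophage genes Mpeg1, Vsig4 and Lyz2 were higher in mean by 0.35 ± 0.12, 0.41 ± 0.16 and 0.39 ± 0.20 (SE), while Adgre1 (F4/80) was lower by a difference of -0.37 ± 0.29 (SE). The neutrophil genes Retnlg, S100a8 and Mmp8 were higher in mean by 0.40 ± 0.11, 0.29 ± 0.12 and 0.19 ± 0.11 (SE), and dim. Of 10 dendritic cell genes 2 were higher (median -0.05), of 11 hepatocyte genes 7 (median 0.03) and of 10 sinusoidal endothelial genes 5 (median 0.0043), with 1 hepatocyte gene, Serpina1a at 0.55 ± 0.20 (SE), and none of the others at that p. The genes with the next smallest p were Hnf4a at 0.17 ± 0.12 and Fgb at 0.11 ± 0.14 in hepatocytes (SE). In dendritic cells Flt3, Xcr1 and Zbtb46 were at -0.11 ± 0.10, 0.08 ± 0.09 and -0.06 ± 0.10 (SE). In sinusoidal endothelium Fcgr2b, Kdr and Lyve1 were at -0.30 ± 0.15, -0.23 ± 0.13 and 0.30 ± 0.19 (SE). No gene of any of these lists passed an adjusted p of 0.05 by limma. The mean of the macrophage list was 9.71, 9.93 and 10.07 on the Balb/cBy arrays, against 9.90, 10.10 and 9.41 on the Balb/c arrays. It was lowest on Balb/c replicate 3 and next lowest on Balb/cBy replicate 1, an order that the 30 T and NK cell genes did not follow. The part of these other cells in the differences was not tested.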

How the data were processed

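Liver RNA of 6 mice was measured on 1 Affymetrix whole-transcript array each, from 500 ng of total RNA per the labels' protocols. Per the submitters' processing notes the authors made the deposited log2 values with RMA, a method that subtracts background, quantile-normalizes arrays and summarizes probes. Its software and genome build were not given. Of 41345 probe sets the annotation gives 23521 a single symbol (22180 genes), 1814 several and 16010 none. Prf1 and Klrb1c each also have 1 probe set shared with another symbol, which was not used.

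The difference was fitted without covariates to the 23521 probe sets (limma 3.58.1, R 4.3.3), with empirical Bayes moderation, two-sided tests and Benjamini-Hochberg adjustment over all of them. Differences are Balb/cBy minus Balb/c. The number of arrays limits the precision. The p-values set each difference against the spread between these animals, after moderation towards the spread of all probe sets. No slide or scan information was used here. The members and lists were chosen with earlier results of these data known. Values on every array are given for members above the olfactory receptor level, the 8 with the smallest p and any without overlap, and for Cxcr6, chosen after its values were seen. From each other list up to 3 genes with the smallest p were named, besides Ptprc, Cxcl16, Il15 and Il7, and Adgre1 and Clec4f, chosen after their values were seen. Alternatives were trend and robust moderation, a block for replicate number, array weights, median centring, averaged probe sets, a filter on dim genes and leaving out each array. Gene order came from a RefSeq table of GRCm38.p6, in which all 32 genes were found.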

Additional observations from a re-analysis of the deposited data

How the results depend on the processing

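No T or NK cell gene passed limma's adjusted p of 0.05 under any of the 13 alternatives, where the smallest adjusted p of a member was 0.447. Array weights called 31 probe sets in all and put 3 members (Cd3d, Cd4 and Nkg7) at an unadjusted p under 0.05, against 7.75% of all genes. The replicate block left 0 there, and in this balanced design it cannot change a difference or its direction. Same-numbered arrays deviated in opposite ways (correlations from -0.32 to -0.19), so the numbers were not taken as pairs. Median centring left 2 members without overlap, and with dim genes removed 3 of 11 members were higher. Leaving out 1 array gave 0 to 4 probe sets past the threshold, 0 to 3 members at an unadjusted p under 0.05, 2 to 8 without overlap and 3 to 11 higher, with the median of the members above the olfactory receptor level from -0.14 to -0.027. The 3 came without Balb/c replicate 3 (Cd4, Nkg7 and Prf1), the 0 without Balb/cBy replicate 2, Balb/cBy replicate 3 or Balb/c replicate 2, and the 11 without Balb/cBy replicate 3. The median over all 30 members ran from -0.085 to -0.029 there. Leaving out Balb/cBy replicate 1 and Balb/c replicate 3 together, chosen after seeing the data, gave 16 probe sets, 3 members at an unadjusted p under 0.05, 15 without overlap and 1 passing plasma cell gene, Jchain (1.51, adjusted p = 0.0491). Of the 30 members 15 changed sign under some alternative and 15 under none. Nkg7 was among the latter, but its groups do not overlap, so leaving out or weighting arrays could not change its sign. Moderation, the replicate block, averaged probe sets and the filter on dim genes leave the difference of a member unchanged by construction. The member values that changed sign were Cd27 -0.0248, Lat -0.00468, Klrb1c 0.0166, Ncr1 -0.12 with array weights, Il7r 0.00639 with median centring, and Cd8a 0.00739, Cd27 -0.0539, Cd28 -0.15, Lat -0.0218, Il7r 0.0171, Klrb1c 0.00407, Ncr1 -0.0669 without both arrays. Without 1 array, members that changed sign ran Cd27 from -0.0406 to 0.0634, Cd28 from -0.0876 to 0.12, Cd5 from -0.00896 to 0.16, Cd8a from -0.0908 to 0.0183, Cxcr6 from -0.17 to 0.0364, Eomes from -0.13 to 0.0292, Gzma from -0.16 to 0.0293, Gzmk from -0.20 to 0.0247, Il2rb from -0.14 to 0.0591, Il7r from -0.0945 to 0.0517, Klrk1 from -0.0683 to 0.0134, Lat from -0.0425 to 0.12, Ncr1 from -0.0551 to 0.0916, Tbx21 from -0.0877 to 0.0778. Of the other named genes, Derl3 -0.0336, Cxcl16 -0.026 changed sign without both arrays, and without 1 array Cxcl16 from -0.0921 to 0.16, Fgb from -0.00453 to 0.20, Laptm5 from -0.0414 to 0.36. Apart from the construction of these settings, the cause was not tested. The number of arrays and, for the 19 dim members, signal near background limit what can be resolved.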
